A study of Mus musculus with 6 samples.

Results

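The 7 genes described here encode proteins that the small intestine releases against bacteria: Lyz1 (lysozyme), the alpha-defensins Defa24 and Defa17, Mmp7 (the metalloprotease that cuts alpha-defensin precursors into their active form), Ang4 (an angiogenin that kills bacteria), and the C-type lectins Reg3b and Reg3g. They were chosen by name, as 7 of the 31319 genes in the deposited matrices. Single-nucleus RNA-seq (snRNA-seq) was performed by the authors on organoids grown from the jejunum of C57BL/6 mice of 8 to 12 weeks, with 3 samples per medium. Organoids were exposed to medium conditioned by quiescent mouse embryonic fibroblasts (QCM) or by senescent ones (SCM), each mixed with organoid growth medium. Tissue, strain and age were the same in both groups. Organoids hold epithelium alone, without the immune cells, stroma and microbes that act on these genes in the gut. Summed over 7 fibroblast markers and over 6 immune markers, the samples had 0.634 to 4.22 and 2.31 to 4.04 CPM (unique transcript counts, or UMIs, scaled to a sample total of 1000000). The labels do not say whether the replicates came from separate mice, so p-values measure the spread between these samples.

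Paneth cells sit at the base of small intestinal crypts beside the stem cells and store lysozyme, alpha-defensins and angiogenins in secretory granules, from which they are released into the crypt lumen. Mmp7 is stored with the defensins and activates them in mice. Reg3b and Reg3g bind bacterial cell walls, are made by enterocytes as well as by Paneth cells, and in the gut are induced by microbes and by cytokines of immune cells.

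Libraries differed in ways that bear on every value below. QCM replicate 1 had a median of 8260 UMIs per nucleus and the other samples 1578 to 3156.5, and with 41035733 UMIs the largest total. The smallest library, SCM replicate 1, had 4071926 UMIs in 430 nuclei, against 3791 to 10833 nuclei in the others. Of its barcodes, 175 (40.7%) were also present in QCM replicate 1, and 40 of these 175 (22.9%) were in the same cluster in both libraries, whereas other pairs of libraries shared 0 to 36 barcodes. Values without QCM replicate 1 or SCM replicate 1 are given beside the members' differences over all nuclei. Clusters were taken as deposited, numbered 0 to 14 without names. Cluster 6 (1755 nuclei, 4.60% of 38154) had 4 of the 9 Paneth markers in the files at 2 times or more the level of the other nuclei (Lyz1, Mmp7, Ang4 and Defa30) and 7 of 9 goblet markers, among them Muc2, Fcgbp and Zg16. Defa30 passed on few nuclei: it was higher in cluster 6 than outside it in 3 of 6 samples, and its level there went from 125 to 27.2 CPM in QCM replicate 3 and from 57.0 to 23.3 CPM in SCM replicate 3 without the top nucleus of each. The cluster is therefore called cluster 6 here and not by a cell type. Other clusters used for reference were cluster 8, enterocyte-like by 6 of 9 markers, cluster 11, tuft-like by 6 of 7, cluster 7, fetal-like by 4 of 6, and cluster 1, with no marker past that limit.

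All 7 genes are protein-coding and lie on 5 chromosomes of GRCm38, by GENCODE M21. Lyz1 (ENSMUSG00000069515) is at chr10:117287797-117292868 on the minus strand, Mmp7 (ENSMUSG00000018623) at chr9:7692090-7699585 on the plus strand and Ang4 (ENSMUSG00000060615) at chr14:51763878-51773590 on the minus strand. The alpha-defensins lie in a cluster of related genes, with Defa17 (ENSMUSG00000060208) at chr8:21655780-21656735 and Defa24 (ENSMUSG00000064213) at chr8:21734494-21735471, both on the plus strand and 77.8 kb apart. Reg3b (ENSMUSG00000071356, chr6:78370657-78373466, plus strand) and Reg3g (ENSMUSG00000030017, chr6:78466269-78468872, minus strand) are 92.8 kb apart.

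Near-identical copies limit what a read can say about the defensins. Of the windows of 50 bases in the annotated Defa17 transcripts, 92.0% (320 of 348) also occurred in transcripts of 14 other Defa genes, most of all Defa3. For Defa24 the share was 28.1% (104 of 370), most of it with Defa30, and 2.43% of its windows occurred in Defa17. Lyz1 shared 16.1% of its windows with its macrophage copy Lyz2 and Ang4 shared 4.70% (31 of 660) with 2 other genes, most of it with Ang5, while Mmp7, Reg3b and Reg3g shared none. Counts of Defa17, and to a lesser degree of Defa24, are therefore uncertain as to the gene they belong to.

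The upstream sequences of 4 members are shown because Mmp7 and Ang4 had the most similar profile over clusters of any pair of members, and because Reg3b and Reg3g are neighbours of one family. RefSeq promoters on GRCm38.p6 were matched for 5 of the 7 members (these 4 and Lyz1). Each sequence below is the 250 bases before the start site, 5′ to 3′ on the gene's own strand, with motif letters in capitals. The letters of a TATA box were searched on the gene's strand, and those of a TCF site, an AP-1 site, an E-box of bHLH factors and a STAT site on both strands.
Mmp7, chr9:7691840-7692089, plus strand: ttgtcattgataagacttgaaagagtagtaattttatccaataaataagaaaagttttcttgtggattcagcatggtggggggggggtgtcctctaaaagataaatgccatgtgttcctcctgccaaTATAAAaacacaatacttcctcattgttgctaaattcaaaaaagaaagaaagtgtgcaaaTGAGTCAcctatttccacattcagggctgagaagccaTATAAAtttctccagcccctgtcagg
Ang4, chr14:51773591-51773840, minus strand: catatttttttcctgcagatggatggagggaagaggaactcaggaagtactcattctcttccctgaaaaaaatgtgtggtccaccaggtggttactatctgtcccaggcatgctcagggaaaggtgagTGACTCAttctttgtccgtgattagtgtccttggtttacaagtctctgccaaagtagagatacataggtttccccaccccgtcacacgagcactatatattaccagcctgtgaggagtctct
Reg3b, chr6:78370635-78370884, plus strand: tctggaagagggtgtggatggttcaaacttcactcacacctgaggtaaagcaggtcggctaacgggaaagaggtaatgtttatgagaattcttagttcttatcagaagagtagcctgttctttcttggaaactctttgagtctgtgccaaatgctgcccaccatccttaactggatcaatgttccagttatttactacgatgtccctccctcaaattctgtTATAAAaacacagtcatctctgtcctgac
Reg3g, chr6:78468875-78469124, minus strand: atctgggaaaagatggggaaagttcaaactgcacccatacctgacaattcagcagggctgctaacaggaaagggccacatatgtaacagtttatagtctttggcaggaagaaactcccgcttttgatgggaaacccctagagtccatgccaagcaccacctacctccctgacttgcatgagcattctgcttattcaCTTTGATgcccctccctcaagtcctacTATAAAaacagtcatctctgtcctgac
The TATAAA letters began 29 bases before the start site of Reg3b, 27 before that of Reg3g, and 123 and 26 before that of Mmp7. They occurred on the gene's strand in 8.32% of the 32851 RefSeq promoters of 300 bases (250 before and 50 after the start site). The TCF letters searched were CTTTGAT, which stood 54 bases before the start site of Reg3g and were on either strand in 3.73% of all promoters. They also occurred on the opposite strand of Mmp7, 4 bases after its start site and so outside the bases shown. For AP-1 the letters were TGAGTCA, found 63 bases before the Mmp7 start site and, on the opposite strand, 122 before that of Ang4, and were in 5.20% of all promoters. The E-box letters CAGCTG, in 16.3% of all promoters, were in none of these 4 sequences, and in Lyz1 they stood 6 bases after the start site. Neither were the STAT letters TTCCGGGAA, in 0.350% of all promoters. Over 300 bases, the promoters of Reg3b and Reg3g were 71.3% identical in a global alignment, against 56.7% to 60.7% for the other 9 pairs of members. These motifs did not overlap each other, and such matches describe letters only. The RefSeq start site of Reg3b lay 228 bases inside the GENCODE gene.

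Across clusters, 5 of the 7 members were highest in cluster 6, by the mean CPM over samples among the 9 clusters (0 to 8) with at least 10 nuclei in every sample. Lyz1 had 139 CPM there and 60.8 in cluster 1, the next in order, Mmp7 44.6 CPM and 13.9 in cluster 7, and Ang4 37.1 CPM and 12.6 in cluster 1. The defensins were less set apart: Defa24 had 579 CPM in cluster 6 and 480 in cluster 1, and Defa17 82.4 and 79.5 CPM. For Mmp7 the step from cluster 6 to its neighbour in the order was larger than its spread over samples (mean log2 difference 1.56 ± 0.83, SD, n = 6), and so it was for Ang4 (1.85 ± 1.31), but not for Lyz1 (0.96 ± 1.30). Without SCM replicate 1, which had 3 Lyz1 UMIs in cluster 6 and 4 in cluster 1, the Lyz1 step was 1.40 ± 0.82 (SD, n = 5) and larger than its spread as well, as was that of Defa24 (0.70 ± 0.60, against 0.59 ± 0.60 with all 6 samples). Clusters 9 to 14 were left out of this order, as some samples had fewer than 10 nuclei there. Over the samples with at least 10, Lyz1 reached 87.4 CPM in cluster 11, and Mmp7 19.5 and Ang4 19.8 CPM in cluster 10. Defa24 reached 556 and Defa17 67.1 CPM in cluster 13. All of these means lay below those of cluster 6. Since the clusters were made from these same nuclei, the levels are a description and no test was made.

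**Figure D1:**
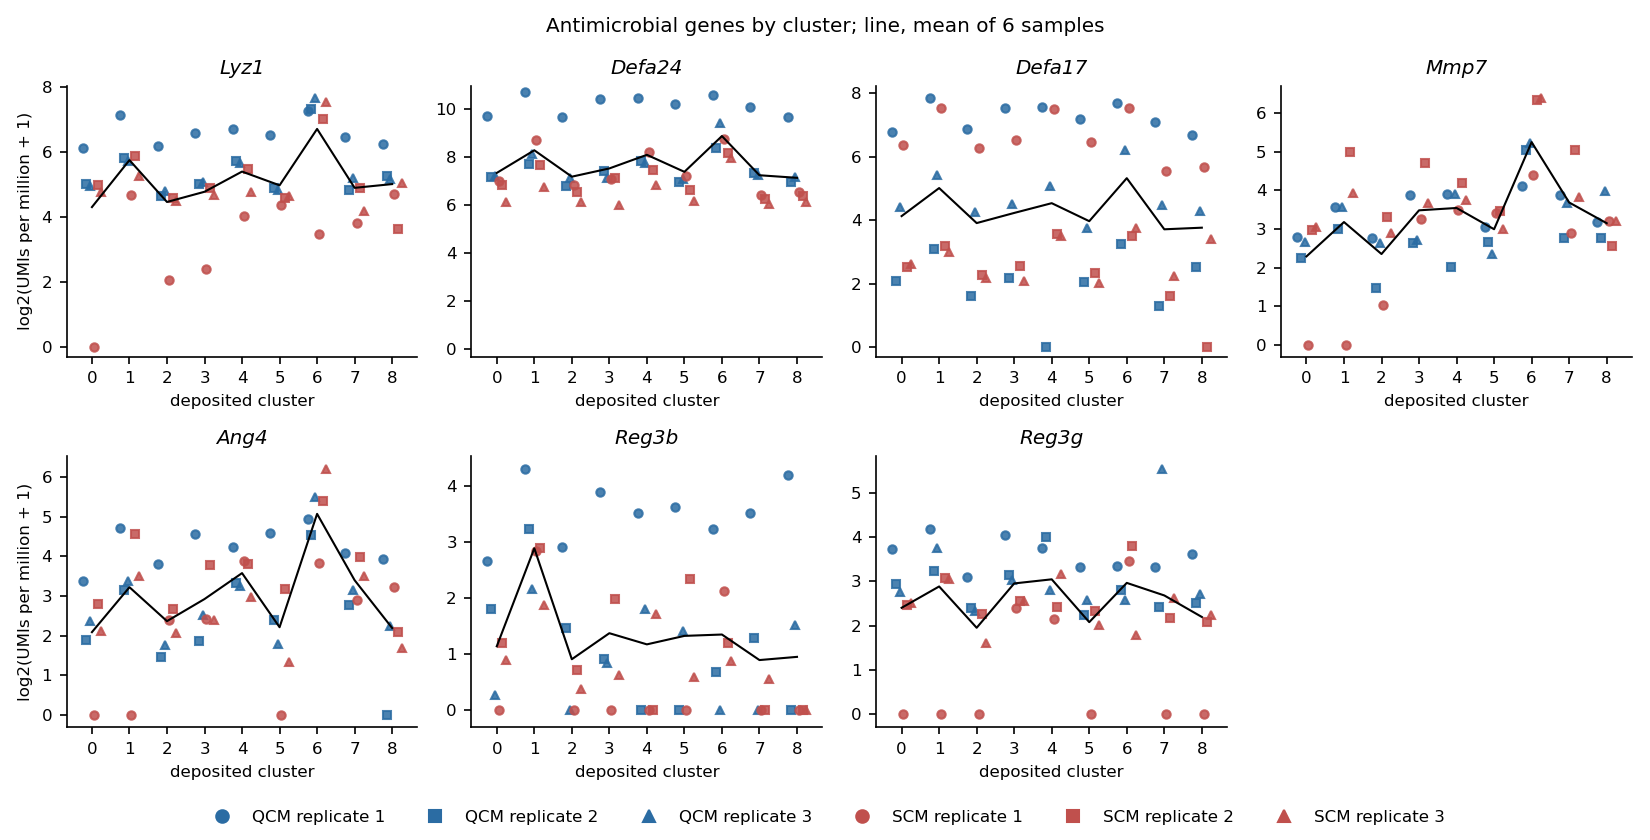
Level of each gene by deposited cluster (x axis) as log2(CPM + 1) (y axis), with 1 point per sample holding at least 10 nuclei of the cluster (colour, medium; symbol, replicate) and a line at the mean of the samples. Mmp7 and Ang4 stand out in cluster 6 and Reg3b in cluster 1, while the points of QCM replicate 1 lie above the others for Defa24 in every cluster from 0 to 8.

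The Reg3 lectins had other patterns. Reg3b was highest in cluster 1 in 6 of 6 samples, in SCM replicate 1 on a single UMI there, with a mean of 7.64 CPM against 3.18 in cluster 8, the next in order (mean log2 difference 1.93 ± 1.30, SD, n = 6). Outside the 9 clusters compared, Reg3g had 16.1 CPM in cluster 12, over 5 samples and on 15 UMIs. Among the 9 it had its highest mean in cluster 7, 11.3 CPM, yet ranked first there in only 1 of 6 samples. That sample was QCM replicate 3, whose 336 cluster 7 nuclei held 35 UMIs of Reg3g, 15 and 13 of them in 2 nuclei. Its level was 46.0 CPM with these nuclei and 9.97 CPM without them. The cluster 7 mean over samples was 5.34 CPM without them, below that of cluster 1 (8.84 CPM), so the first place of cluster 7 rested on 2 nuclei. Cluster 1 was the next cluster for Reg3g, in which its level exceeded that of the other nuclei in 5 of 6 samples. Over the 9 clusters the mean CPM profiles (log2(CPM + 1)) of Mmp7 and Ang4 correlated at a Pearson r of 0.971, those of Defa24 and Defa17 at 0.969 and those of Lyz1 and Ang4 at 0.946, while r of Reg3b with the others lay between 0.219 and 0.508. These are descriptions over 9 clusters that share the same 6 libraries and hence their depth.

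How far each member reached beyond its own cluster differed by gene and by library. Lyz1 in cluster 6 was at 1.56, 4.78 and 5.45 times the level of the other nuclei in QCM replicates 1 to 3, and at 0.609, 3.85 and 6.36 times in SCM replicates 1 to 3. Mmp7 stood at 1.73, 7.56 and 4.30 times in QCM and at 3.78, 5.13 and 8.06 times in SCM. Ang4 stood at 1.59, 5.96 and 7.54 times in QCM and at 2.80, 4.04 and 12.7 times in SCM. QCM replicate 1 had the smallest ratio of the 6 for Mmp7 and Ang4, and the value of SCM replicate 1 for Lyz1 rests on 3 UMIs in 15 nuclei.

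The defensins were more evenly spread. Defa24 was higher in cluster 6 than outside it in every sample, by 1.25, 2.31 and 3.85 times in QCM and by 2.47, 2.43 and 3.26 times in SCM. Defa17 was 1.27, 2.43 and 2.92 times higher in QCM and 1.81, 2.43 and 2.40 times in SCM. So 4 of the 7 members (Defa24, Defa17, Mmp7 and Ang4) had a higher CPM in cluster 6 than outside it in all 6 samples, a pattern found for 7.39% of the 19046 genes tested. Cluster 1 exceeded the other nuclei in all 6 samples for Lyz1 (1.04 to 1.70 times), Defa24 (1.34 to 2.29), Defa17 (1.35 to 2.17) and Reg3b (2.06 to 12.1, or 2.06 to 5.53 without SCM replicate 1, which had 1 Reg3b UMI in cluster 1 and 2 outside it), and did so for 7.61% of all tested genes.

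The median share over samples of a member's UMIs that lay outside its own cluster was 77.3% for Lyz1, 84.6% for Defa24, 87.1% for Defa17, 74.6% for Mmp7 and 73.5% for Ang4, while 92.6% to 95.5% of all UMIs of a sample lay outside cluster 6. For Reg3b the median share outside cluster 1, which held 8110 nuclei, was 63.4% (48.1% to 66.7%), where 65.6% to 96.0% of all UMIs of a sample lay outside that cluster, and for Reg3g it was 94.1% outside cluster 7, where 83.6% to 97.2% of all UMIs lay. In QCM replicate 1 the 5 members of cluster 6 had 90.3% to 92.8% of their UMIs outside it. Taking the spread as the log2 ratio of the CPM outside to that inside the own cluster (1 CPM added to both), SCM and QCM differed by 0.46 for Lyz1 (p = 0.7), -0.27 for Defa24 (p = 0.7), -0.05 for Defa17 (p = 0.8), -0.52 for Mmp7 (p = 0.6), -0.34 for Ang4 (p = 0.8), -0.29 for Reg3b (p = 0.6) and 1.29 for Reg3g (p = 0.4), by two-sided exact permutation tests. The value of Reg3g was 0.59 without the 2 nuclei of QCM replicate 3 named above. With 3 samples against 3, no p under 0.1 was possible, and no member reached it.

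Within a library, the members' mix was compared inside and outside cluster 6. Defa17 made up 12.1% of the UMIs of Defa17 and Defa24 together in cluster 6 of QCM replicate 1 and 11.9% outside it, 2.53% and 2.41% in QCM replicate 2, and 9.64% and 12.4% in QCM replicate 3. In SCM the shares were 30.2% and 37.1% in replicate 1, 3.50% and 3.51% in replicate 2, and 4.73% and 6.31% in replicate 3. The range of this mix over libraries, 2.41% to 37.1%, was thus wider than the step between cluster 6 and the remaining nuclei in any library. Some libraries lay close together, such as QCM replicates 1 and 3 outside cluster 6 (11.9% and 12.4%).

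Lyz1 against Defa24 was less even. Lyz1 made up 9.22%, 32.5% and 22.4% of the pair's UMIs in cluster 6 of QCM replicates 1 to 3 and 7.53%, 18.9% and 17.0% outside it. In SCM replicates 1 to 3 it made up 2.31%, 31.0% and 42.6% in cluster 6 and 8.73%, 22.1% and 27.5% outside. The Lyz1 share was higher inside cluster 6 in 5 of 6 libraries, SCM replicate 1 being the exception. Mmp7 made up more of the pair with Lyz1 inside cluster 6 than outside it in 5 of 6 libraries, for example 38.7% and 32.2% in SCM replicate 2, with QCM replicate 3 reversed (15.4% and 18.7%) and SCM replicate 1 resting on 9 UMIs.

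**Figure D2:**
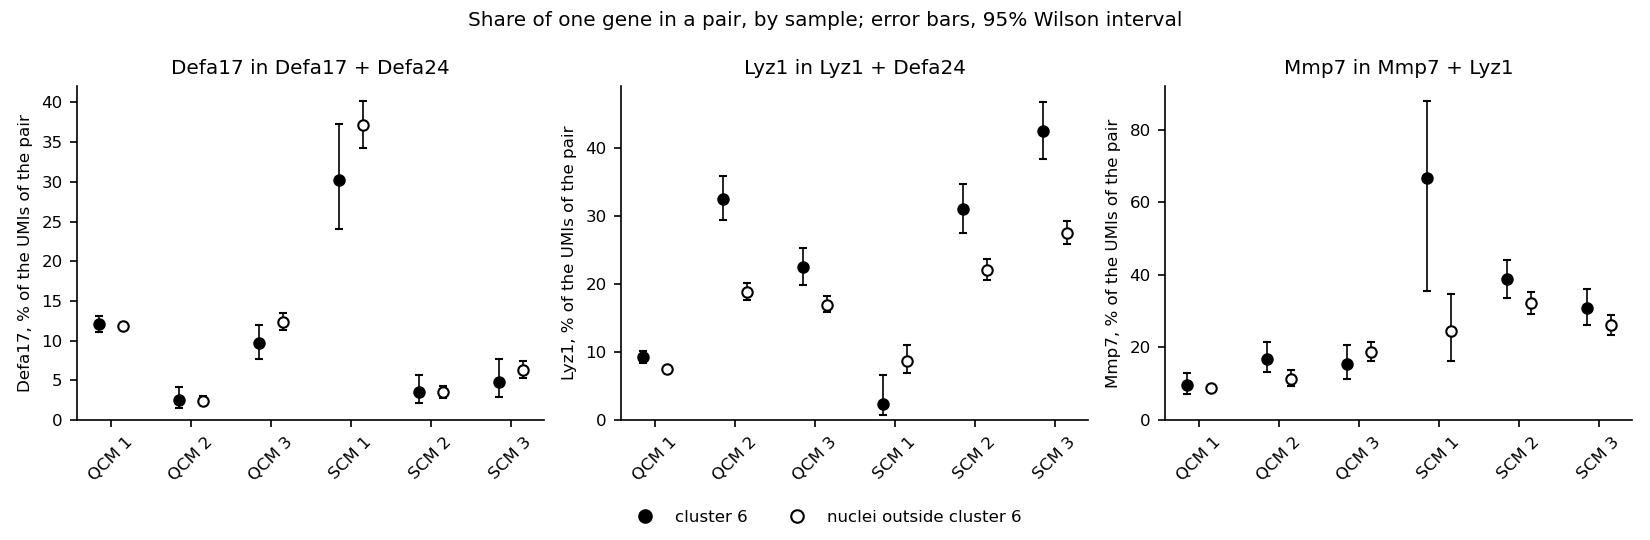
Share of 1 gene in the UMIs of a pair (y axis, percent) by sample (x axis), for cluster 6 (filled) and the nuclei outside it (open), with Wilson 95% intervals that cover counting error only. For Defa17 with Defa24 the shares run from 2.41% to 37.1% over libraries, some of which lie close together. For that pair, filled and open points of a library differ most in SCM replicate 1 (30.2% and 37.1%).

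Shares of nuclei with a UMI depend on depth, so each nucleus was also thinned to 1000 UMIs, which left out 2366 QCM and 813 SCM nuclei that had fewer. Lyz1 was then found in a median of 12.9% of cluster 6 nuclei over samples (0% to 20.7%), against 3.07% (0% to 8.56%) in enterocyte-like cluster 8 and 3.53% (2.88% to 9.52%) in tuft-like cluster 11 (without SCM replicate 1), cell types that should lack it. Unthinned, these medians were 25.2%, 10.5% and 12.9%. In QCM replicate 2, where both clusters had similar depth, 57 of 441 thinned nuclei of cluster 6 (12.9%, Wilson 95% interval 10.1% to 16.4%) and 5 of 248 of cluster 8 (2.02%, 0.864% to 4.63%) had a Lyz1 UMI, at medians of 2542 and 2401 UMIs before thinning. Mmp7 was found in a median of 3.14% of cluster 6 nuclei over samples (0% to 8.13%), against 0.948% in cluster 8 (0% to 2.51%) and 0% in cluster 11 (0% to 7.14%). Ang4 was found in 2.07% (0% to 5.74%), against 0.207% (0% to 9.09%) and 1.56% (0% to 2.38%). For both genes the ranges over samples overlapped between these clusters. For Ang4 the 0% in cluster 6 and the 9.09% in cluster 8 came from SCM replicate 1, with 15 and 11 nuclei. In replicates 2 and 3 its share was 1.81% to 5.74% in cluster 6, 0% to 0.413% in cluster 8 and 0% to 1.92% in cluster 11. For Ang4 the interval of a single library was wide, for example 1.81% (0.922% to 3.54%) in cluster 6 of QCM replicate 2.

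Defa24 was found throughout. In thinned nuclei the median share was 27.8% in cluster 6 (14.1% to 73.2%), 10.6% in cluster 8 (0% to 59.4%) and 20.2% in cluster 11 (8.24% to 88.1%), so that the ranges over samples of both overlapped that of cluster 6. In QCM replicate 1, before thinning, every nucleus of each cluster except cluster 0 (99.7%) had a Defa24 UMI. By the median over samples Reg3b was rare, at 1.32% of cluster 1 nuclei before thinning and 0.371% after it. QCM replicate 1 held 264 Reg3b UMIs in its 1639 cluster 1 nuclei, against 1 to 19 UMIs in each other sample. Free RNA in droplets can give UMIs in nuclei that do not express a gene, and the source of these UMIs was not tested. For the 5 members of cluster 6 the enterocyte-like and tuft-like shares are given for reference only. A nucleus of cluster 11, described below, was itself rich in them. Enterocytes make Reg3b and Reg3g, so for these genes the enterocyte-like share is no such reference.

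Nuclei rich in these transcripts were few. Of 34975 nuclei with at least 1000 UMIs, 10 had over 1% of their UMIs from Lyz1, Defa24, Defa17, Mmp7 and Ang4 together, 9 of them in cluster 6, with 5 of these 10 from QCM replicate 3, 2 each from QCM replicate 1 and SCM replicate 2, and 1 from SCM replicate 3. The highest share was that of a cluster 6 nucleus of QCM replicate 3, in which 160 of 2623 UMIs (6.10%) came from the 5 genes, namely 8 of Lyz1, 117 of Defa24, 24 of Defa17, 2 of Mmp7 and 9 of Ang4, beside 97 of Defa30. The nucleus outside cluster 6 was in cluster 11 of SCM replicate 2, with 47 UMIs of Lyz1 and 133 of Defa24 among 5068, beside 46 of Defa30 and 7 of Muc2. Over all 38154 nuclei, Lyz1 was found in 13.6%, Defa24 in 34.0%, Mmp7 in 3.23% and Reg3b in 1.53%.

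Between the media, no member passed the test over all nuclei. In sums over nuclei, fewer cells of a type and less RNA per cell cannot be told apart. The mix of clusters differed between libraries: cluster 1 held 43.2% of the nuclei of QCM replicate 1 and 13.7% to 21.9% in the other samples. Cluster 6 held 3.49% to 5.83% in all samples. Lyz1 had 101, 41.4 and 44.6 CPM in QCM and 15.96, 40.3 and 36.1 CPM in SCM, without overlap. Fitted by edgeR, its log2 ratio (SCM over QCM) came to -1.23 ± 0.51 (SE), to -0.49 without QCM replicate 1, to -0.92 without SCM replicate 1 and to -0.22 with replicates 2 and 3 alone. Reg3g had 12.1, 5.85 and 8.48 CPM in QCM and 2.21, 5.24 and 4.51 CPM in SCM, also without overlap, at a log2 ratio of -1.29 ± 0.45 and -0.83 without QCM replicate 1. Both had the smallest p an exact permutation test can give here, 0.1, and 2.09% of the 19046 genes tested had all SCM samples below all QCM samples.

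For Defa24 and Reg3b, QCM replicate 1 was the library whose removal moved the estimate most. Defa24 had 1220, 154 and 204 CPM in QCM and 190, 130 and 84.4 CPM in SCM, a 14.5-fold range over the 6 samples. Its log2 ratio was -2.28 ± 0.85, and -0.48 without QCM replicate 1. With replicates 2 and 3 alone it was -0.80 ± 0.27 (edgeR unadjusted p = 0.0254, adjusted p = 1.0). Reg3b had 12.4, 2.22 and 1.2045 CPM in QCM and 0.737, 1.64 and 1.08 CPM in SCM, and its log2 ratio moved from -2.42 ± 0.94 to -0.54 without QCM replicate 1 and to -0.38 with replicates 2 and 3 alone. In both genes the remaining QCM samples overlapped the SCM samples.

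Defa17 varied most, with 165, 3.83 and 27.6 CPM in QCM and 108, 4.71 and 5.49 CPM in SCM, a 43.1-fold range. The highest sample of each medium was replicate 1, the pair of libraries with shared barcodes. Its log2 ratio was -1.17 ± 1.51, 1.13 without QCM replicate 1 and -3.98 without SCM replicate 1. Mmp7 was the only member with a positive estimate, 9.80, 6.14 and 9.79 CPM in QCM against 6.39, 20.6 and 13.5 CPM in SCM, at a log2 ratio of 0.49 ± 0.44. Leaving out 1 library gave 0.09 (without SCM replicate 2) to 0.81 (without SCM replicate 1) for Mmp7. With replicates 2 and 3 alone Mmp7 was at 1.04 ± 0.34 (edgeR unadjusted p = 0.0217, adjusted p = 0.9999). Ang4 had 19.2, 5.02 and 7.78 CPM in QCM and 5.40, 12.4 and 8.73 CPM in SCM, at -0.50 ± 0.58, and 0.45 without QCM replicate 1.

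**Figure D3:**
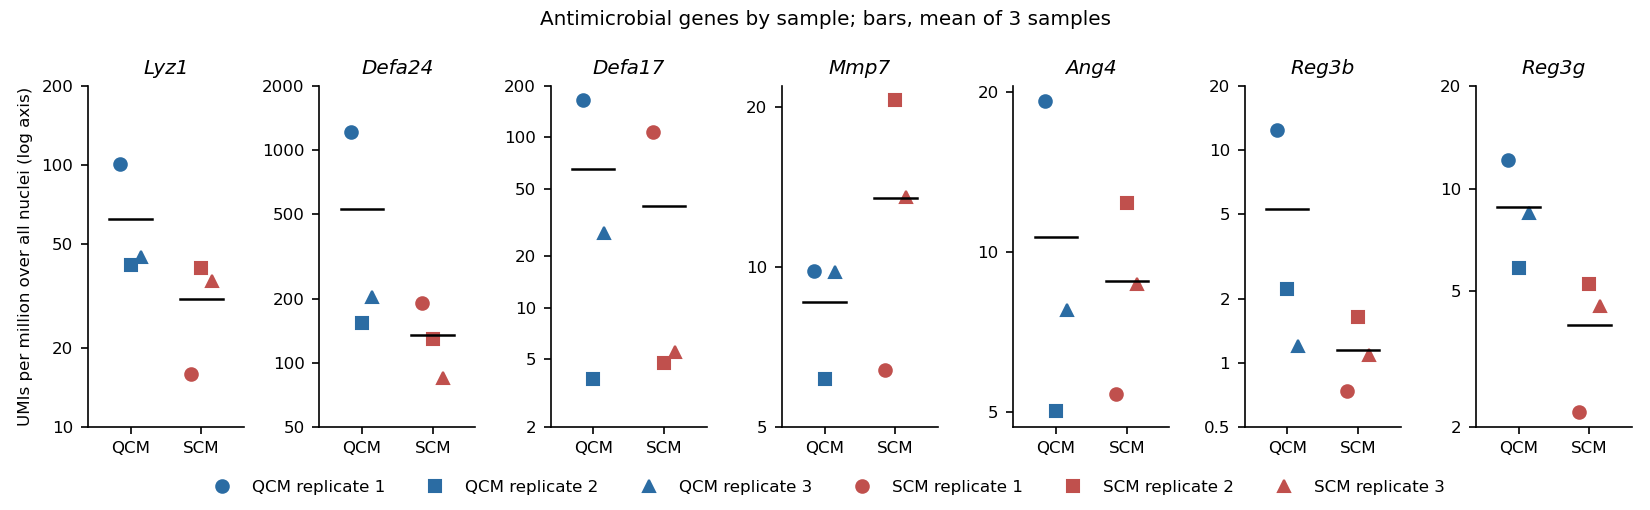
Level of each gene over all nuclei of a sample in CPM (y axis, log axis, own range per gene) by medium (x axis), with 1 point per sample and bars at the mean of 3 samples. QCM replicate 1 is the highest sample for 6 of the 7 genes, and only Lyz1 and Reg3g have all SCM points below all QCM points.

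By edgeR's quasi-likelihood test, 0 of the 7 members and 0 of 19046 genes (0%) passed an adjusted p of 0.05, and the members' adjusted p lay between 0.927 and 0.930. At an unadjusted p under 0.05, 4 of the members had a lower level in SCM, beside 587 of all genes (3.08%, and 4.55% in either direction). These were Lyz1 (edgeR unadjusted p = 0.0423), Defa24 (0.0284), Reg3b (0.0333) and Reg3g (0.0204). Without QCM replicate 1 their edgeR p were 0.227, 0.168, 0.351 and 0.0858. The members' median log2 ratio was -1.23, against -0.01 over all genes. Without QCM replicate 1 it was -0.48, with 3 of the 7 estimates above 0. With equal weight of the 9 clusters, fitted by limma on log2(CPM + 1), it was -0.89. That fit gave -1.36 for Defa24, -0.89 for Reg3b, -1.13 for Lyz1 and -1.14 for Reg3g. It gave -0.70 for Defa17, -0.06 for Ang4 and 0.52 for Mmp7. DESeq2 called 20 genes (0.105%), none of them a member. QCM replicate 1 was the highest of the 6 samples for 6 of 7 members, all but Mmp7, and for 16.1% of all tested genes. Some marker lists of other cell types were also highest there: 9 summed enterocyte markers had 5019 CPM in QCM replicate 1 and 477 to 2411 CPM in the other samples, and 9 goblet markers 2020 CPM and 504.4 to 1131 CPM. Other lists were not, with 8 enteroendocrine markers at 174 CPM in QCM replicate 1 and up to 194 CPM elsewhere, 7 tuft markers at 15.5 CPM and up to 29.0 CPM, 6 stem cell markers lowest there (1076.5 CPM against 1231 to 2578 CPM), and 6 fetal markers at 90.4 CPM, below every SCM sample (149 to 566 CPM). Their part in the members' levels was not tested.

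Within cluster 6, the estimates of Defa24 and Mmp7 had opposite signs. Defa24 had 1504.5, 326 and 687 CPM in QCM and 424, 285 and 249 CPM in SCM, at a log2 ratio of -1.52 ± 0.50 (SE; edgeR unadjusted p = 0.0112, adjusted p = 0.892). Mmp7 had 16.2, 32.1 and 36.2 CPM in QCM and 20.03, 80.8 and 82.5 CPM in SCM, at 1.24 ± 0.41 (edgeR unadjusted p = 0.0124, adjusted p = 0.892). SCM replicate 1 lay within the QCM range for both genes, and its cluster 6 had 15 nuclei. Lyz1 stood at 153, 157 and 199 CPM in QCM and at 10.0, 128 and 185 CPM in SCM, so the groups overlapped (-0.59 ± 0.51). Leaving out 1 library gave -1.16 (without SCM replicate 3) to -0.18 (without SCM replicate 1) for Lyz1. Ang4 stood at 29.6, 22.4 and 44.2 CPM in QCM and at 13.4, 40.7 and 72.6 CPM in SCM (0.51 ± 0.43). Of the 6 members tested there, 0 were called, as were 0% of 11136 genes, of which 5.3% had an unadjusted p under 0.05. Without QCM replicate 1 the estimates were -0.76 for Defa24 and 0.97 for Mmp7.

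In nuclei outside cluster 6, Lyz1 was at 97.9, 32.9 and 36.5 CPM in QCM and at 16.4, 33.2 and 29.1 CPM in SCM, a log2 ratio of -1.32 ± 0.53, and Defa24 at -2.39 ± 0.89. Whether the medium difference was the same inside and outside cluster 6 was tested for each member as an interaction in edgeR, with the sample as block. Inside minus outside, the difference was 0.55 ± 0.34 for Lyz1, 0.40 ± 0.24 for Defa24, 0.38 ± 0.30 for Defa17, 0.83 ± 0.36 for Mmp7, 1.01 ± 0.45 for Ang4, 1.02 ± 0.94 for Reg3b and 1.44 ± 0.52 for Reg3g. All 7 estimates were positive, no member was called, and 1 of 14949 genes was (0.00669%). DESeq2 gave -0.19 for Lyz1 and positive values for the other 6. The spread per sample given above also pointed the other way for Lyz1, with relatively more outside cluster 6 in SCM (0.46). That value was -0.51 without SCM replicate 1. For Defa24, Defa17, Mmp7 and Ang4 the spread pointed the same way as the edgeR estimates. Mmp7, Ang4 and Reg3g had edgeR unadjusted p = 0.0302, 0.0319 and 0.00882. A p under 0.05 for a positive difference was thus found for 3 of the 7 members, and for 3.16% of all genes. Counts of Reg3g in cluster 6 were low, with 22, 10 and 5 UMIs in QCM replicates 1 to 3 and 3, 20 and 3 in SCM. Its level there was 0.745, 1.04 and 0.580 times that of the other nuclei in QCM and 6.30, 2.79 and 0.537 times in SCM. Without QCM replicate 1 the differences were -0.14 for Lyz1, -0.12 for Defa24, -0.41 for Defa17, 0.12 for Mmp7, 0.02 for Ang4 and 1.26 for Reg3g, so that 3 of these 6 turned sign and Reg3b was not tested.

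**Figure D4:**
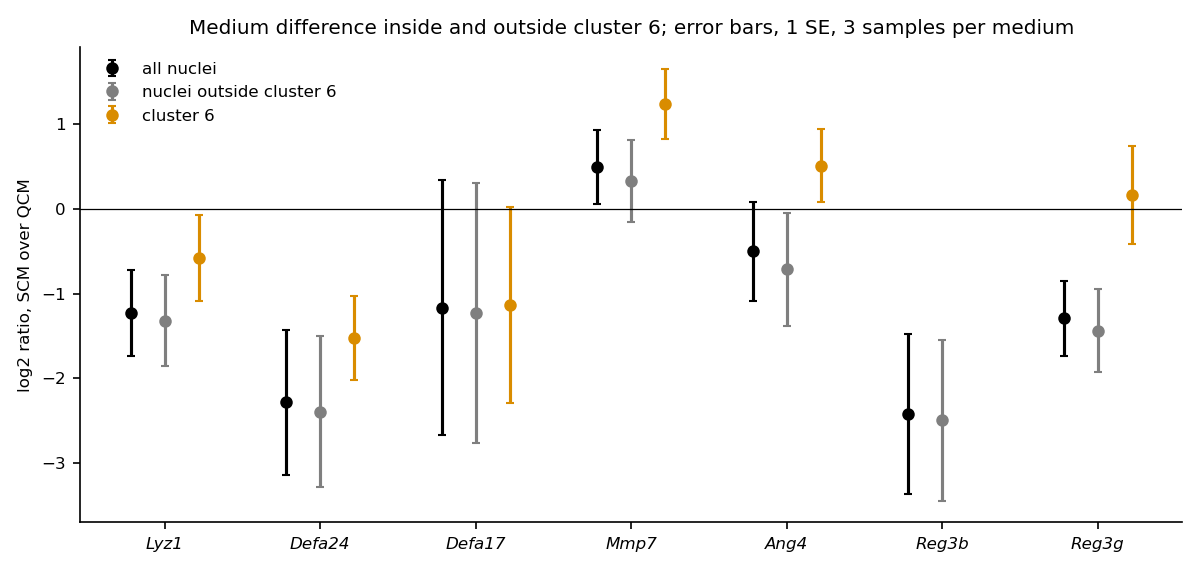
Log2 ratio of SCM to QCM (y axis) for each gene (x axis) over all nuclei, in cluster 6 and in the nuclei outside it, with bars of 1 SE from edgeR over 3 samples per medium and Reg3b not tested in cluster 6. The cluster 6 estimate is the highest of those shown for each gene tested there, and Mmp7 lies above 0 in all 3.

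For the lectins, the own clusters gave little more. Reg3b in cluster 1 had a log2 ratio of -1.64 ± 0.76 (edgeR adjusted p = 0.674), -0.45 without QCM replicate 1, and an interaction of 0.27 ± 0.50 with the nuclei outside that cluster. Reg3g did not pass the filter on low counts in cluster 7. With no such filter it was called there, at -2.28 ± 0.55 (edgeR adjusted p = 0.00428), as were 440 of 25688 genes, and its QCM level rested on the 2 nuclei of QCM replicate 3 named above. Its interaction for cluster 7 was -1.20 ± 0.72, and neither interaction was called. The interaction for cluster 7 rested on QCM replicate 3, in which these nuclei held 28 of 35 Reg3g UMIs, and was 0.25 ± 0.60 without that library.

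Of the 105 combinations of member and cluster, 55 passed the filter on low counts, in clusters 0 to 12, of which clusters 9 to 12 were fitted without SCM replicate 1 and its 1 to 4 nuclei there. Of the 55, 0 were called, as were 0% of the 130109 combinations of gene and cluster. With no filter on low counts, 33 of 91 were called, beside 0.984% of all combinations. Most of these calls were of Defa24 and Defa17, for which QCM replicate 1 was the highest sample in 9 of 9 clusters. Reg3b in cluster 8 was called at an SE of 3.44e+07, which is no usable fit. The unfiltered fit was not run without QCM replicate 1. Defa24 was tested in 13 clusters and had a lower estimate in SCM in each, with log2 ratios from -3.15 to -0.92 and an unadjusted p under 0.05 in 12. Lyz1 had a lower estimate in 9 of 12 clusters (-1.57 to 0.95), 6 of them at that p, and Defa17 in 11 of 11, 3 of them at that p. Mmp7 had a higher estimate in 8 of 9 clusters (-0.15 to 1.24), with cluster 6 the only one at an unadjusted p under 0.05. Altogether 22 of the 55 were lower at that p and 1 higher, against 4.55% lower of all combinations, but the clusters of a sample share its library and are not replicates of each other. In the clusters 0 to 8, QCM replicate 1 was the highest sample for Defa24, Defa17 and Reg3b in 9 of 9, for Lyz1 and Ang4 in 8, for Reg3g in 6 and for Mmp7 in 0. Without that library, 6 of 50 combinations were lower and 2 higher at an unadjusted p under 0.05. Defa24 was then lower in 12 of 13 clusters, 5 of them at that p, its log2 ratios running from -1.47 to 1.01. In cluster 1 the Defa24 estimate went from -2.11 to -0.29. A single nucleus held 133 of the 161 Defa24 UMIs and 47 of the 56 Lyz1 UMIs in cluster 11 of SCM replicate 2.

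Other genes of the same biology were summarised by lists. Among 10 further alpha-defensins only Defa30, another stored defensin, was tested over all nuclei, at a log2 ratio of -1.96 ± 0.69 (edgeR unadjusted p = 0.0226, adjusted p = 0.927), and at -0.91 without QCM replicate 1. In cluster 6 Defa30 was at -1.20, and leaving out 1 library gave -3.18 (without SCM replicate 3) to -0.18 (without QCM replicate 3). A single nucleus held 97 of the 124 Defa30 UMIs there in QCM replicate 3 and another 41 of the 69 in SCM replicate 3. Of 17 other Paneth cell products 13 were tested and 0 called, with 6 estimates above and 7 below 0 and a median of -0.11 (0.15 without QCM replicate 1). Named by their level, the lectin Itln1 had -1.64 ± 0.60 over all nuclei and -0.78 in cluster 6, and -0.55 and -0.41 without QCM replicate 1. The stress response factor Nupr1 had -0.11 over all nuclei, and 0.14 without QCM replicate 1. The 15 regulators of secretory and Paneth cell fate were all tested, with 0 called, 6 estimates above and 9 below 0 and a median of -0.09 (0.13 without QCM replicate 1). Among them the Wnt effector Tcf7l2 stood at 0.10 (-0.02 to 0.22 leaving out 1 library) and the unfolded protein response factor Xbp1 at -0.53 (-0.18 without QCM replicate 1). Within the Reg family 3 of 4 other genes were tested and 0 called, with 3 of 3 estimates below 0, Reg4 at -0.57 and Reg1 at -0.73. Without QCM replicate 1 these were -0.20 and 0.41, and 2 of the 3 estimates lay above 0. Of 11 inducible defence genes 9 were tested and 0 called, with 6 estimates above and 3 below 0 and a median of 0.19 (0.13 without QCM replicate 1). Of those below 0, Pigr, the carrier of secretory antibodies, stood at -0.78 ± 0.28 (edgeR unadjusted p = 0.0239) and Lypd8, an anchored protein that binds bacterial flagella, at -0.78, and without QCM replicate 1 they stood at -0.60 and -0.22.

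Most fate regulators had a higher level in cluster 6 than elsewhere. Of the 15, 11 had a higher CPM in cluster 6 than outside it in all 6 samples, as had 7.39% of all 19046 tested genes. The median ratio of mean CPM was 3.42, against 0.961 over all tested genes. Named after their values were seen, Gfi1 stood at 20.4, Kit at 14.2, Creb3l1 at 11.5 and Atoh1 at 9.50 times. Among other Paneth products Sntb1 stood at 25.3 and Wnt3 at 10.3 times, named in the same way. Itln1, named by its level, stood at 1.62 times. Of the 13 other Paneth products tested, 8 were higher in cluster 6 in all 6 samples (median of the list 1.62), while the 1 other alpha-defensin tested, Defa30, was so in 3 of 6. Spdef, a goblet and Paneth cell factor also named after its value was seen, stood at 29.5 times. Of the 3 other Reg genes tested, 1 was higher in cluster 6 in all 6 samples (Reg4, at 5.57 times; median of the list 1.44), as were 0 of the 9 inducible defence genes (median 0.835). The genes outside these lists whose profile over the 9 clusters was most like the mean of the 7 members were Selenom (Pearson r 0.967), Arfip2 (0.953), Tsta3 (0.937), Tmed3 (0.929) and Tm9sf3 (0.927), a description over 9 clusters of the same libraries.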

How the data were processed

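Nuclei of frozen organoids were profiled with Chromium 3′ v3.1 kits. Per the labels, the submitters' notes name Cell Ranger 2.1.1 and mm10. The deposited values are raw UMI counts for every gene in every nucleus, after the authors removed outlying nuclei (limit of 3 MAD) and clustered the rest by Leiden after Harmony. Of 31319 genes 31244 had a symbol in GENCODE M21. Mki67, Top2a, Pcna, Foxf2 and mitochondrial genes were not analysed here.

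Sums of counts over a sample's nuclei, or over its nuclei of a cluster where it had at least 10, were compared by edgeR's quasi-likelihood test (edgeR 4.0.16 with limma 3.58.1, R 4.3.3; TMM, filterByExpr, Benjamini-Hochberg over all genes tested, threshold 0.05). DESeq2 1.42.0 was an alternative. Per-sample spread was compared by two-sided exact permutation tests (SciPy 1.17.1, Python 3.11.15). Totals of 4071926 to 41035733 UMIs set the precision, which was lowest in SCM replicate 1. No doublet caller was run. As a stand-in, the 6% of nuclei with the most UMIs were left out in an alternative. Scripts were tested on simulated data, in which edgeR made 7 false calls over all nuclei and DESeq2 54. Of simulated 2-fold and 4-fold changes, edgeR recovered 4% and 70% over all nuclei. It recovered 30% and 95% in cluster 6 and 1% and 75% in cluster 1. The lack of calls over all nuclei therefore says little about changes of 2-fold.

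A member's own cluster was the one of highest mean CPM among the 9 with at least 10 nuclei in all samples. All 7 members were named, with the 2 tested genes of highest level of each list (Spdef, Gfi1, Kit, Creb3l1, Atoh1, Sntb1 and Wnt3 were chosen after their values were seen) and the 5 genes of most similar profile among those of at least 20 CPM in some cluster. The members and lists were chosen with earlier results of these data known. Cell types were named from fixed markers, as -like, where at least 3 markers reached 2-fold over the other nuclei at 5 CPM or more.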

Additional observations from a re-analysis of the deposited data

How the results depend on the processing

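Of 314 alternative values for 24 results, 283 kept their direction and side of the threshold, 23 turned sign, 3 became called, and 5 counts moved by over 1.5 times. The cause was not tested for any of them. No member passed an adjusted p of 0.05 over all nuclei or in the interaction under any alternative run. Over all nuclei, DESeq2 called 20 genes in place of 0, and the adjusted p of members lay between 0.406 and 1.0 over the alternatives. Leaving out 1 replicate gave a log2 ratio of -3.98 to 1.13 for Defa17 and -0.87 to 0.45 for Ang4, and Ang4 was 0.66 with replicates 2 and 3 alone. Library size alone moved the median of all genes from -0.01 to 0.14. Within clusters, the members called (0) became 1 by DESeq2 (Defa24 in cluster 7, where 89 of 10515 genes were called), 33 with no low-count filter (0.984% of 318724 gene and cluster combinations were then called) and 0 to 1 leaving out 1 replicate, the 1 being Defa17 in cluster 10 without QCM replicate 2, where 31 of 6133 genes were called. In cluster 6, Defa24 (-1.57), Defa17 (-1.20) and Mmp7 (1.22) were called with no low-count filter, beside 265 of 25081 genes, and leaving out 1 replicate gave -3.22 to 0.19 for Defa17 and -0.11 to 0.78 for Ang4. Reg3g failed the filter in its own cluster 7 and was called there with no filter (-2.28).

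Same-numbered samples were more alike in replicates 1 and 2 but not in replicate 3. Their deviations correlated at 0.365, 0.462 and -0.0885, in replicates 1 and 2 above every pair of unlike numbers (-0.463 to 0.164). SCM replicate 3 correlated best with QCM replicate 2, so the replicate block was used as an alternative only. With the block, 0 genes were called over all nuclei and 2 members within clusters, both in cluster 9, where 208 of 10250 genes were called, against 1, 35 and 4 genes in clusters 7, 11 and 12 (Defa17 at -3.02, edgeR adjusted p 0.0342, and Defa24 at -1.15, 1.98e-04).

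The spread difference turned sign without the 6% of nuclei with the most UMIs for Lyz1 (-0.19) and Reg3g (-0.25), with means over nuclei for Defa24 (0.037), Defa17 (0.29) and Ang4 (0.18), with thinned nuclei for Defa17 (0.58), Mmp7 (0.90), Ang4 (1.44), Reg3b (0.57) and Reg3g (-0.048), and without nuclei of shared barcodes, an alternative chosen after seeing the data, for Ang4 (0.036) and Reg3b (0.47). Leaving out 1 replicate gave -0.51 to 1.13 for Lyz1, -0.66 to 0.15 for Defa24, -0.31 to 0.27 for Defa17, -0.95 to 0.013 for Mmp7, -0.80 to 0.28 for Ang4, -0.62 to -0.011 for Reg3b and 0.31 to 1.79 for Reg3g. With 3 samples per medium, permutation tests could not reach 0.05, and counts in cluster 6 of SCM replicate 1 rest on 15 nuclei.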
